A study of Mus musculus with 24 samples.

Results

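The comparison described here is that of NIH3T3 cells 30 min after the addition of spermidine with the same cells before it, and it asks which transcripts moved first. It rests on 6 of the 24 arrays of the series, 3 harvested at 30 min and 3 harvested at 0 min, chosen by their labelled harvest time, and on 19938 genes. NIH3T3 is an immortalised line of mouse embryonic fibroblasts. All cells, those of the 0 min group included, had spent 96 h in 1 mM difluoromethylornithine (DFMO), which irreversibly inhibits ornithine decarboxylase, the enzyme that makes putrescine, and the submitters describe them as depleted of polyamines and arrested in growth. The 30 min group then received 10 µM spermidine, a polyamine, with 1 mM aminoguanidine, an inhibitor of the amine oxidases of serum, while the 0 min group is labelled as unstimulated. The remaining 18 arrays come from 6 later harvests, the first at 60 min and the last at 600 min, with 3 biological replicates at each time. The labels do not say whether the cells taken at 0 min had been given aminoguanidine, and none of the 24 arrays is labelled as cells that received aminoguanidine or fresh medium without spermidine. An effect of spermidine therefore cannot be told apart from one of aminoguanidine or of handling the dishes. In these bulk samples a change in how many cells express a gene and a change in the RNA per cell cannot be told apart either.

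When a resting fibroblast meets a growth factor, serum or stress, a small group of immediate early genes is transcribed within minutes from factors already present in the cell, with no need for new protein. Many of them encode transcription factors (the Egr, Fos, Jun, Krueppel-like and Nr4a families), others encode proteins that destroy messenger RNA, phosphatases that switch MAP kinases off again, or secreted signals. Their RNAs are short-lived, so that levels come down again soon after transcription stops. Polyamines are small positively charged molecules that bind RNA, and spermidine also supplies the aminobutyl group of hypusine, a modified residue of the translation factor eIF5A.

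All values are log2 signals deposited after robust multi-array averaging, so that a difference of 1 is a doubling. The median over probe sets was close to 4.4 on every array, and signals close to 4 are near the lower end of what the arrays report. Deposited values had an effect of replicate number already taken out: the means of the 3 replicate numbers over the 8 times were equal to within 8.75e-05 for every gene. The main axis of variation over the 24 arrays (63.1% of the variance) placed the arrays of 0, 30 and 60 min at one end, those of 30 and 60 min beyond those of 0 min, and the arrays labelled 360 to 600 min toward the other. Replicate 3 of 120 min lay at 2.61 on it, near the other 240 min arrays at 2.07 and 1.49, and replicate 3 of 240 min at -13.2, near the other 120 min arrays at -12.2 and -12.2. These values go against the labels of both arrays, and whether the 2 labels were exchanged was not tested. Neither array is part of the 30 min comparison, but both enter the shared estimate of spread and every value at 120 and 240 min below, where the library labelled replicate 3 is kept under its label. The mean over 14 measured fibroblast markers was 8.50 to 8.56 on the 30 min arrays and 8.51 to 8.64 on the 0 min arrays, although Lum, one of them, sat near the floor at 3.91 on the 30 min arrays and 3.99 on the 0 min arrays. Means over the measured markers of macrophages (12), epithelium (10), endothelium (8), adipocytes (6) and skeletal muscle (8) lay between 4.15 and 4.44 on the 30 min arrays and between 4.14 and 4.45 on the 0 min arrays, near the array medians or below them. Single markers in these lists lay well above the floor. The highest 30 min means were 7.43 for macrophages, 7.50 for epithelium, 6.89 for endothelium (Flt1), 7.21 for adipocytes (Lpl) and 5.11 for skeletal muscle (Acta1).

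At 30 min 3 genes were higher at an adjusted p under 0.05 (limma, Benjamini-Hochberg over 19938 genes), 0.015% of those tested: Egr1, a zinc finger transcription factor, Zfp36, which encodes the mRNA-destabilising protein tristetraprolin, and Nppb, which encodes the secreted B-type natriuretic peptide. No gene was lower at that threshold (0%), although 657 genes (3.3%) were lower and 447 (2.24%) higher at an unadjusted p under 0.05. Differences of size lay mostly on the higher side. Among genes with an unadjusted p under 0.05 and no overlap between the 3 arrays at 30 min and the 3 at 0 min, which were 328 higher and 510 lower, 71 were higher and 23 lower by at least 0.25, 23 higher and 2 lower by at least 0.5, and 4 higher and 0 lower by at least 1. The median difference over all genes was -0.0095, and the median 95% confidence interval of a gene reached 0.118 to either side of its estimate. Since the means of the replicate numbers had been made equal, the 16 residual degrees of freedom of this model are 2 more than the values carry, and its standard errors and p-values are too small. A model with replicate number as a term counts them, with 14 residual degrees of freedom and a median standard error of 0.0605, against 0.0567. The 3 calls were lost in that model, with adjusted p = 0.112 for Egr1 and Zfp36 and 0.122 for Nppb, and 0 genes were then called in either direction, with 352 higher at an unadjusted p under 0.05. They were also lost without any one of the arrays other than replicate 3 of 30 min, and without that array 7 genes were called higher.

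**Figure D1:**
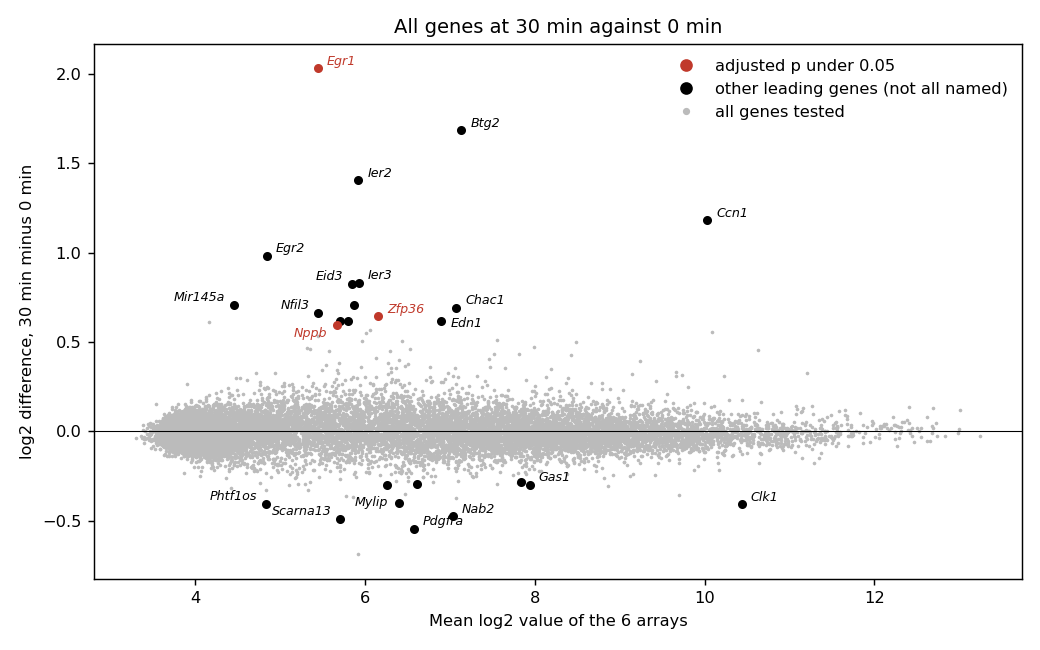
Difference between 30 min and 0 min (log2, vertical axis) against the mean log2 value of the 6 arrays (horizontal axis) for the 19938 genes. Red points are the 3 genes past the adjusted threshold, black points the other leading genes, of which most are named, and grey points all others. The largest differences lie above 0, with Egr1 at 2.03, and the leading lower genes lie between -0.55 and -0.29.

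Egr1 had the largest difference of any gene. It read 6.39, 7.37 and 5.61 on the 3 arrays at 30 min, against 4.65, 4.30 and 4.33 at 0 min. Every 30 min array lay above all 0 min arrays by more than those differed among themselves, but the 30 min arrays differed widely, with replicate 3 the lowest. The means were 6.46 ± 0.88 at 30 min and 4.43 ± 0.19 at 0 min (SD, n = 3 each), a difference of 2.03 ± 0.32 (SE), or 4.09-fold, with an adjusted p of 0.0358. With replicate number in the model the adjusted p was 0.112. Leaving out 1 array at a time gave differences of 1.58 to 2.46. Egr2, a close relative that binds the same GC-rich sites, read 5.35, 5.89 and 4.77 at 30 min, against 4.55, 4.04 and 4.47 at 0 min. Its arrays did not overlap either, and they held the same order at 30 min as those of Egr1, with replicate 2 highest and replicate 3 lowest; its difference of 0.98 ± 0.28 did not pass (adjusted p = 0.618). Egr4 differed by 0.093, with signals near the floor at both times. The 0 min means of Egr1 (4.43) and Egr2 (4.35) also lay close to the array medians. The fold difference of Egr1 thus rests on a low 0 min signal.

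The Nab proteins bind Egr factors and repress transcription from their sites, and both of their genes had negative differences, neither called. Nab2 read 6.96, 6.80 and 6.61 at 30 min, against 7.00, 7.32 and 7.48 at 0 min, so that all 3 later arrays were lower, though replicate 1 only barely. The difference was -0.48 ± 0.12 (adjusted p = 0.521), and that of Nab1 was -0.19 with overlapping arrays. Of the 6 measured Egr and Nab genes, 1 was called, 3 lay wholly above and 1 wholly below the 0 min arrays, against 5.1% of all genes wholly above and 8.32% wholly below, and the median of the 6 differences was 0.065.

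The Fos, Jun and Atf3 proteins pair to form the AP-1 transcription factors. Jun read 8.60, 8.77 and 8.57 at 30 min, against 8.18, 8.32 and 8.14 at 0 min, a difference of 0.43 ± 0.085 (adjusted p = 0.139). The 3 arrays of each time lay close together and well apart from the others. Fos read 4.25, 4.94 and 4.19 at 30 min, against 3.86, 3.79 and 3.89 at 0 min, where its signal was at the floor, and differed by 0.61 ± 0.12 (adjusted p = 0.139). Atf3, which joins AP-1 under stress, read 5.80, 6.27 and 5.81 at 30 min, against 5.44, 5.29 and 5.36 at 0 min, a difference of 0.60 ± 0.17 (adjusted p = 0.618). These 3 were the members whose arrays lay wholly above, and all 3 were highest at 30 min in replicate 2. Junb differed by 0.19 and Fosb by 0.072, both with overlapping arrays near the floor. Of the 11 measured AP-1 genes none was called, 1 lay wholly below (Batf3, -0.058), and the median difference was 0.19, or 0.10 on leaving out replicate 2 of 30 min. The 3 above were 27.3% and the 1 below 9.09% of the list, against 5.1% and 8.32% of all genes.

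Zfp36, which binds AU-rich elements of short-lived mRNAs and directs their decay, was called with a smaller difference than Egr1 and less spread. It read 6.57, 6.70 and 6.15 at 30 min, against 5.91, 5.78 and 5.80 at 0 min. The means of 6.47 ± 0.29 at 30 min and 5.83 ± 0.068 at 0 min gave a difference of 0.64 ± 0.097 (SE), or 1.56-fold, with an adjusted p of 0.0358. With replicate number in the model the adjusted p was 0.112. Btg2, an antiproliferative protein that recruits deadenylases and is also a p53 target, had the second largest difference of all genes. Its values were 7.62, 8.44 and 7.87 at 30 min, against 6.97, 5.97 and 5.93 at 0 min, and here it was replicate 1 of 0 min that stood above the other unstimulated arrays. The difference of 1.68 ± 0.34 had an adjusted p of 0.139. The other 7 of the 9 measured genes for mRNA decay and antiproliferative regulators overlapped, and the median of the 9 differences was -0.046, or -0.021 on leaving out replicate 3 of 0 min.

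The promoters of the transcriptional and decay regulators at the top of the ranking are shown because their letters can be searched for the sites that immediate early genes are known for. The RefSeq table used here (build GRCm38.p6) held promoters for 10 of the 15 leading higher genes. Egr1 had no entry in it, so that its promoter was not searched. Windows from 250 bases before to 50 bases after the start were searched on both strands. The motifs were the CArG box, bound by serum response factor, the cAMP response element TGACGTCA, the AP-1 site TGANTCA and the Egr site GCGNGGGCG. Matches are in capitals, and each line gives the 250 bases before the start, 5′ to 3′ on the strand of the gene. In the Egr2 window, the middle one of 5 RefSeq entries, the CArG box begins 72 bases before the start, and in the Zfp36 window 58 bases before it. The Egr site of Zfp36 begins at 105 bases, the cAMP response element of Btg2 at 166 and its Egr site at 131. Nppb, the third gene called, had none of these letters in its window.
Zfp36, chr7:28379229-28379478, minus strand: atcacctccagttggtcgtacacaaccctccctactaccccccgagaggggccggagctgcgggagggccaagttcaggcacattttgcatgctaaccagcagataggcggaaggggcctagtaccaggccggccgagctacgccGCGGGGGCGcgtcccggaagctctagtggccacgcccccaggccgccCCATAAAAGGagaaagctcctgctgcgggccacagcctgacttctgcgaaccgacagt
Btg2, chr1:134079156-134079405, minus strand: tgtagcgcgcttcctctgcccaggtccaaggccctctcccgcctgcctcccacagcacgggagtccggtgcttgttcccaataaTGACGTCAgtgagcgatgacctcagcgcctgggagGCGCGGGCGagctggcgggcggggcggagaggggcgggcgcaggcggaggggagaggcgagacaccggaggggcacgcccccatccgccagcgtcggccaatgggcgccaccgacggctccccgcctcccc
Egr2, chr10:67537619-67537868, plus strand: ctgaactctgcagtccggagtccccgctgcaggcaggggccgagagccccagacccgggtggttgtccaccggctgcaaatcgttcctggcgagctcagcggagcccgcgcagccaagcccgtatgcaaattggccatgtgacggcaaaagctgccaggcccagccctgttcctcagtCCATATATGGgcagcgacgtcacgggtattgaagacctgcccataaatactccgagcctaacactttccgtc
Nppb, chr4:147985650-147985899, plus strand: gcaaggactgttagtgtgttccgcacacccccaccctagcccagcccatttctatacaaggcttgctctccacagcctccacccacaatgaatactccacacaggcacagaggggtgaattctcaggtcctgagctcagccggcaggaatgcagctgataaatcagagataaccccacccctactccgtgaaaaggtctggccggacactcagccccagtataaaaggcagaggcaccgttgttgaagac

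A CArG box was found for 2 of these 10 genes (20.0%), against 1.63% of the 15614 tested genes with a promoter. The cAMP response element was found for 1 (2.72% of those tested genes) and the AP-1 site for none (8.08%). The Egr site was found for 3 of the 10, Zfp36, Btg2 and Nfil3, against 9.32% of those tested genes. For the 42 of 51 listed early regulators with a promoter, moved or not, these were 3 genes with a CArG box, 3 with a cAMP response element, 3 with an AP-1 site and 12 (28.6%) with an Egr site. The 257 higher genes with a promoter, out of the 328 without overlap, held an Egr site in 9.73% and a CArG box in 3.11% of genes, against 9.32% and 1.63% of the 15614 tested genes that have one. Promoters of 8 of the 10 leading lower genes held none of the 4 motifs. A match of letters is a description of the window and shows no binding.

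Other small early genes followed Egr1 and Btg2 in size. Ier2, an immediate early nuclear protein, read 6.81, 7.01 and 6.05 at 30 min, against 5.28, 5.30 and 5.08 at 0 min, and its difference of 1.40 ± 0.28 had an adjusted p of 0.139. Ier3, an early response gene linked to cell survival, read 6.43, 6.38 and 6.21 at 30 min, against 5.26, 5.66 and 5.60 at 0 min (0.83 ± 0.21). In both, the groups stood clear of each other by more than the spread of the 0 min arrays. The polo-like kinases Plk3 and Plk2, stress-responsive and also p53 targets, differed by 0.61 ± 0.15 and 0.46 ± 0.12. Plk3 varied little within either time, with 6.11, 6.16 and 6.05 at 30 min, against 5.57, 5.51 and 5.40 at 0 min (adjusted p = 0.453). In the fit of the 6 arrays alone, Plk3 and Ptgs2 were the 2 genes called, both at an adjusted p of 0.0234, and Egr1 was not (0.377).

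The list of Krueppel-like, Ier and Nr4a early genes also held early genes outside these families, such as Plk2. Of its 24 measured genes, 9 (37.5%) lay wholly above the 0 min arrays and 1 (4.17%) wholly below, against 5.1% and 8.32% of all genes. None was called, and the median difference was 0.14, or 0.072 on leaving out replicate 1 of 0 min. Phlda1 differed by 0.57, Klf6, a zinc finger factor of the Krueppel-like family, by 0.32, Ier5 by 0.24, and Klf5 and Klf9 by 0.19 and 0.17. Nr4a1, an orphan nuclear receptor that responds early to many stimuli, read 6.19, 6.52 and 5.91 at 30 min, against 5.66, 6.19 and 6.23 at 0 min, and so overlapped. The 4 lists of early regulators together (Egr and Nab, AP-1, mRNA decay, and this one) held 50 measured genes, of which 2 were called. Wholly above were 17 (34%) and wholly below 3 (6%), against 5.1% and 8.32% of all genes. The median of the 50 was 0.083, so that most of the listed genes differed little.

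**Figure D2:**
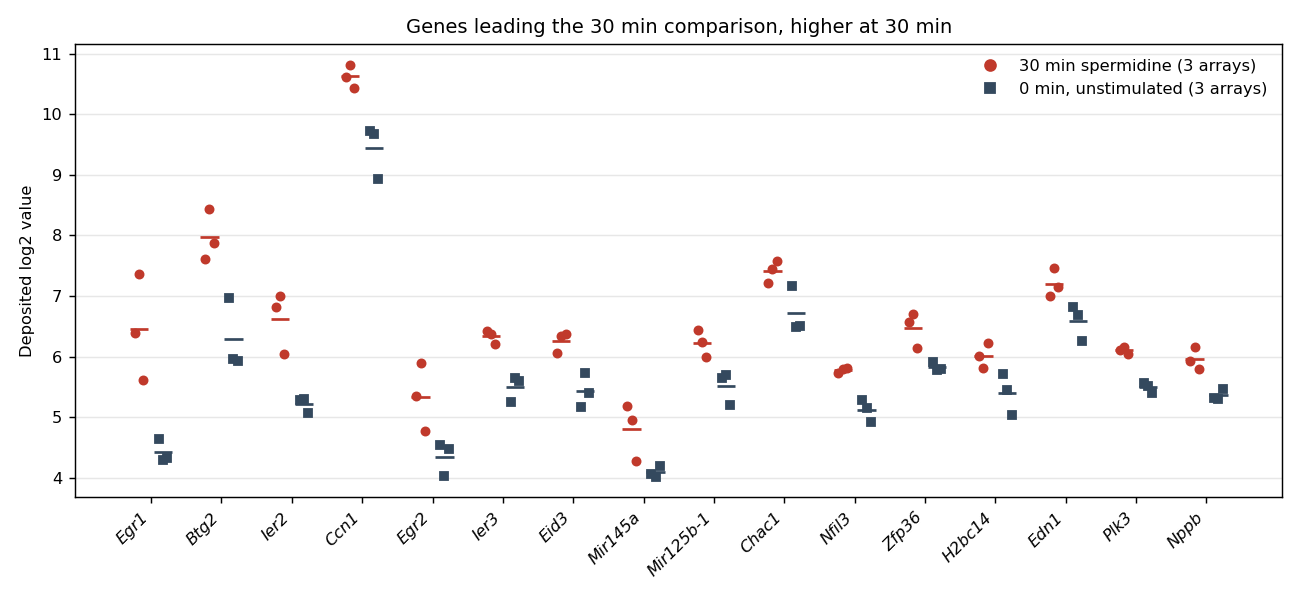
Log2 signal of the leading higher genes and of Nppb on each array, with the 3 arrays at 30 min left of the 3 at 0 min and bars at the group means. For each gene every 30 min array lies above every 0 min array, and Egr1 has the widest spread at 30 min, from 5.61 to 7.37.

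The arrays of 1 time did not move evenly. Of the 15 leading higher genes, 8 were highest at 30 min in replicate 2 and 9 lowest in replicate 3, and at 0 min 10 were highest in replicate 1 and 8 lowest in replicate 3. The genes called without replicate 3 of 30 min were Egr1, Zfp36, Nppb, Ier2, Fos, Mir145a and Mir143. When the 2 arrays that stand apart at 120 and 240 min were left out, the 7 genes called were Egr1, Zfp36, Nppb, Btg2, Ccn1, Jun and Nrg1, the last of which, the growth factor neuregulin 1, differed by 0.45. Nrg1 and Mir143 are named after their values were seen.

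Of 18 measured genes that switch off MAP kinase signalling after it has been switched on, 4 (22.2%) lay wholly above the 0 min arrays. Wholly below lay 1 (5.56%, Dusp16, -0.071), against 5.1% of all genes above and 8.32% below, and none was called. Dusp6, a phosphatase specific for ERK, read 9.37, 9.42 and 9.51 at 30 min, against 9.17, 9.11 and 8.85 at 0 min, a difference of 0.39 ± 0.097 (adjusted p = 0.495). Dusp1, which acts on p38, JNK and ERK, read 10.43, 10.43 and 10.27 at 30 min, against 10.05, 10.11 and 10.06 at 0 min (0.31 ± 0.085, adjusted p = 0.603). The groups did not overlap in either gene. Errfi1, an inhibitor of the EGF receptor, differed by 0.33 and Spry2, an inhibitor of receptor tyrosine kinase signalling, by 0.27. These were the 4 wholly above. The median of the 18 differences was 0.043, and it was 0.018 on leaving out replicate 1 of 0 min and 0.14 on leaving out replicate 2.

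Secreted products held the third called gene. Nppb read 5.93, 6.15 and 5.80 at 30 min, against 5.32, 5.31 and 5.47 at 0 min, with a clear gap between the groups. The means of 5.96 ± 0.18 at 30 min and 5.37 ± 0.089 at 0 min gave a difference of 0.60 ± 0.097 (SE), or 1.51-fold, with an adjusted p of 0.0386. With replicate number in the model the adjusted p was 0.122. Edn1, which encodes the vasoconstrictor peptide endothelin-1, read 7.00, 7.46 and 7.15 at 30 min, against 6.82, 6.68 and 6.26 at 0 min (0.62 ± 0.18, adjusted p = 0.686). Ptgs2, the inducible cyclooxygenase of prostaglandin synthesis, listed here for its secreted product, read 10.36, 10.40 and 10.34 at 30 min, against 9.83, 9.87 and 9.74 at 0 min (0.56 ± 0.15, adjusted p = 0.603). Its 3 arrays at 30 min agree to within 0.1 and lie far above the others, and the adjusted p rests on a spread pooled over all 8 times. Ereg, an EGF receptor ligand, differed by 0.35 and Inhba, a subunit of activin, by 0.30. Il6 lay at the floor with 3.94 at 30 min and 4.04 at 0 min. Of 22 measured genes of the list 5 (22.7%) lay wholly above and none wholly below, against 5.1% and 8.32% of all genes. In the list 1 gene was called, and the median was 0.00068, ranging from -0.034 on leaving out replicate 1 of 0 min to 0.059 on leaving out replicate 2.

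Ccn1, a matricellular protein that serum, mechanical force and the coactivator YAP are known to induce, read 10.62, 10.82 and 10.43 at 30 min, against 9.72, 9.68 and 8.92 at 0 min. All 3 later arrays exceeded the unstimulated ones by more than the 30 min arrays differed among themselves, but by less than the 0 min arrays did. Replicate 3 was lowest at both times. The difference was 1.18 ± 0.22, or 2.27-fold, with an adjusted p of 0.101. Its relative Ccn2 differed by 0.33 and the YAP target Ankrd1 by 0.50, both without overlap, and F3 and Amotl2 by 0.12 and 0.11. These 5 of the 17 measured YAP targets (29.4%) lay wholly above and none wholly below, against 5.1% and 8.32% of all genes. None was called, and the median was 0.063, or 0.10 on leaving out replicate 3 of 30 min. Among 19 cytoskeletal targets of serum response factor and its MRTF cofactors 6 (31.6%) lay wholly above and none below. But the largest non-overlapping difference was that of Cnn2, a calponin, at 0.18, and Actb differed by 0.018 and Tpm1 by 0.040.

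Stress-related genes were mixed in size. Among 23 measured p53 targets 7 (30.4%) lay wholly above and none below, against 5.1% and 8.32% of all genes. Above 0 were 22 differences, against 8686 of the 19938 over all genes, and the median was 0.16. Among the 7 were Btg2, Plk3, Plk2, the death receptor Fas (0.50 ± 0.19) and the p53 ligase Mdm2 (0.33). Btg2 and Plk2 are also counted in the lists of early regulators above. In 18 of these 23 genes the highest 0 min value was that of replicate 1, and in 15 the highest 30 min value that of replicate 2. Leaving out the first of these arrays gave a median of 0.18, and leaving out the second one of 0.16. In the list for ATF4 and amino acid starvation, 5 of 28 genes (17.9%) lay wholly above and 1 (3.57%) below. The median of the 28 was 0.072, and it was 0.12 on leaving out replicate 1 of 0 min and 0.046 on leaving out replicate 2. Chac1, which degrades glutathione, read 7.22, 7.45 and 7.58 at 30 min, against 7.17, 6.49 and 6.51 at 0 min. Its replicate 1 at 0 min came within 0.1 of the 30 min arrays, and the difference of 0.69 ± 0.19 did not pass (adjusted p = 0.603). Ppp1r15a, which restores translation by directing dephosphorylation of eIF2, differed by 0.46 ± 0.12, while Atf4 itself differed by 0.061 and Trib3 by 0.23 with overlap. In 21 of the 28 genes replicate 1 held the highest 0 min value.

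**Figure D3:**
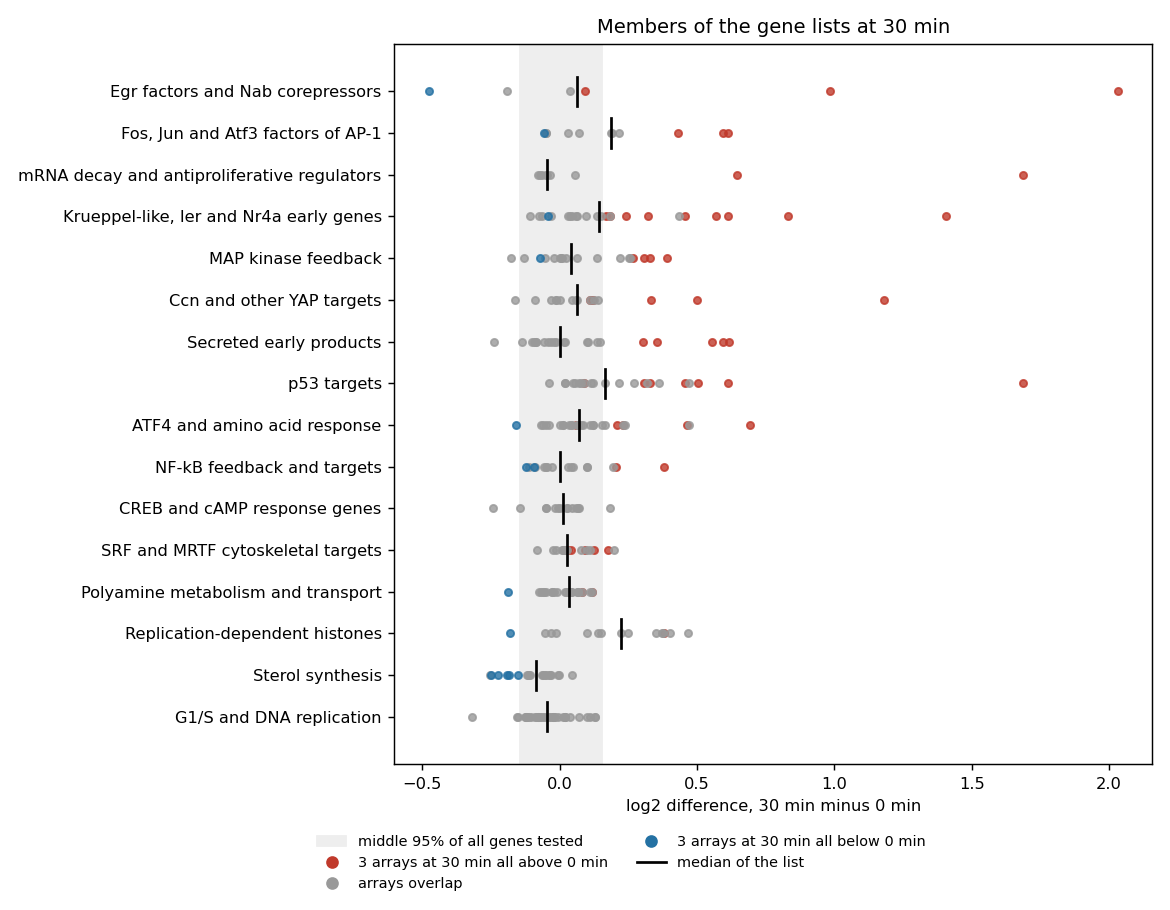
Difference between 30 min and 0 min (log2, horizontal axis) of every measured member of 16 gene lists. Red points are genes whose 3 arrays at 30 min lie above all 3 at 0 min, blue points genes below, grey points genes that overlap, black bars the list medians and the grey band the middle 95% of all genes; the far points on the right are single members such as Egr1 at 2.03 and Btg2 at 1.68, while every median lies between -0.086 and 0.22.

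Further leading genes stood outside these groups. Nfil3, a basic leucine zipper repressor, read 5.73, 5.79 and 5.82 at 30 min, against 5.29, 5.15 and 4.92 at 0 min (0.66 ± 0.13, adjusted p = 0.139). Eid3, named as an inhibitor of differentiation that binds the coactivator EP300, read 6.06, 6.34 and 6.37 at 30 min, against 5.17, 5.73 and 5.40 at 0 min (0.82 ± 0.25, adjusted p = 0.686). Neither pair of groups overlapped. H2bc14, a histone H2B gene, read 6.02, 5.81 and 6.22 at 30 min, against 5.71, 5.45 and 5.04 at 0 min (0.62 ± 0.18, adjusted p = 0.618). Histone genes are near copies of one another, so that signal may be shared between their probe sets. H2bc14 is not on the list of replication-dependent histones, which holds 31 names, older names of the same genes included. Among the 15 measured under these names, 11 differences were above 0, against 8686 of the 19938 over all genes. The median of the 15 was 0.22, the highest of any list in the plot of list members. This median was 0.049 without replicate 3 of 0 min. But only H1f3 lay wholly above (0.38) and H2ac8 wholly below (-0.18), 6.67% each, against 5.1% and 8.32% of all genes, and none was called.

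Genes of microRNAs were among the leading ones. The probe sets report RNA from the locus, in which the primary transcript, the hairpin and the mature form cannot be told apart. Mir145a read 5.18, 4.96 and 4.28 at 30 min, against 4.07, 4.02 and 4.20 at 0 min, where it lay at the floor. Replicates 1 and 2 at 30 min were far above all the others, and replicate 3 only just. The difference was 0.71 ± 0.14 with an adjusted p of 0.139, and 0.97 with an adjusted p of 3.07e-05 without replicate 3 of 30 min. Leaving out 1 array at a time gave differences of 0.52 to 0.97, with adjusted p up to 0.843. Mir145a was called in only 1 of the 14 settings run for it. Mir143, its neighbour in the genome, was also lowest at 30 min in replicate 3, with 4.12, 4.14 and 3.85, against 3.80, 3.78 and 3.72 at 0 min (0.27 ± 0.059, adjusted p = 0.265). Mir125b-1 read 6.44, 6.24 and 5.99 at 30 min, against 5.65, 5.70 and 5.20 at 0 min (0.71 ± 0.19, adjusted p = 0.590). The paralogous locus Mir125b-2, which gives the same 5p product, differed by -0.11, and Mir100, of the same cluster as Mir125b-1, by -0.054. Mir27a read 6.87, 6.69 and 6.52 at 30 min, against 6.21, 6.22 and 6.13 at 0 min (0.51 ± 0.15, adjusted p = 0.686), and its cluster members Mir23a and Mir24-2 differed by 0.32 and 0.13 with overlap. Apart from Mir145a and Mir125b-1 these were named after their values were seen. Over all 300 measured microRNA genes 17 (5.67%) lay wholly above and 41 (13.7%) wholly below, against 5.1% and 8.32% of all genes. Their median was -0.021, so that the few large differences do not describe the class.

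The mature products of the 2 loci on chromosomes 9 and 8 are shown with the seed, bases 2 to 8, in capitals, since the seed decides which messages a microRNA pairs with. The sequences are those of RefSeq on GRCm38.p6, and all lie on the plus strand. No seed is shared between the 4 products.
mmu-miR-125b-5p, chr9:41581940-41581961: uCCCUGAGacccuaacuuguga
mmu-miR-125b-1-3p, chr9:41581980-41582001: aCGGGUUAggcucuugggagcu
mmu-miR-27a-3p, chr8:84208727-84208747: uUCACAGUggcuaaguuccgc
mmu-miR-27a-5p, chr8:84208685-84208706: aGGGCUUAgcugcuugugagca

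On the lower side no gene passed the adjusted threshold, and the nearest was Phtf1os, a transcript from the strand opposite the gene Phtf1. It read 4.55, 4.69 and 4.64 at 30 min, against 4.99, 5.05 and 5.05 at 0 min, a difference of -0.41 ± 0.069 with an adjusted p of 0.0501. The arrays within each time agree closely, and the gene was called lower under 4 of the other settings tried, with an adjusted p of 0.0320 among genes at or above the median level. No source used here says how the arrays separate the strands, so that RNA from Phtf1 cannot be told apart from it. The largest difference among the leading lower genes was that of Pdgfra, a receptor for platelet-derived growth factor and one of the fibroblast markers, which read 6.43, 6.25 and 6.22 at 30 min, against 6.59, 6.97 and 6.98 at 0 min (-0.55 ± 0.17, adjusted p = 0.694). Its sister receptor Pdgfrb differed by -0.12 with overlapping arrays.

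The other leading lower genes had differences between -0.49 and -0.29, none called. Scarna13, a small RNA of Cajal bodies, read 5.50, 5.59 and 5.30 at 30 min, against 5.83, 5.83 and 6.21 at 0 min (-0.49 ± 0.10, adjusted p = 0.173). Clk1, a kinase that phosphorylates SR splicing factors, read 10.33, 10.30 and 10.06 at 30 min, against 10.56, 10.61 and 10.76 at 0 min (-0.41 ± 0.093, adjusted p = 0.338). In both, replicate 3 was the lowest array at 30 min and the highest at 0 min. Mylip, the ligase that marks the LDL receptor for degradation, differed by -0.40, Gas1, a gene known for its expression in growth-arrested fibroblasts, by -0.30, Nemp1, of the nuclear envelope, by -0.30, Pik3ip1, an inhibitor of phosphoinositide 3-kinase, by -0.29 and the membrane glycoprotein Emb by -0.29. Snai1, a repressor induced by TGF-beta, read 6.75, 6.66 and 6.56 at 30 min, against 6.89, 6.97 and 6.96 at 0 min (-0.28 ± 0.11, adjusted p = 0.814).

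**Figure D4:**
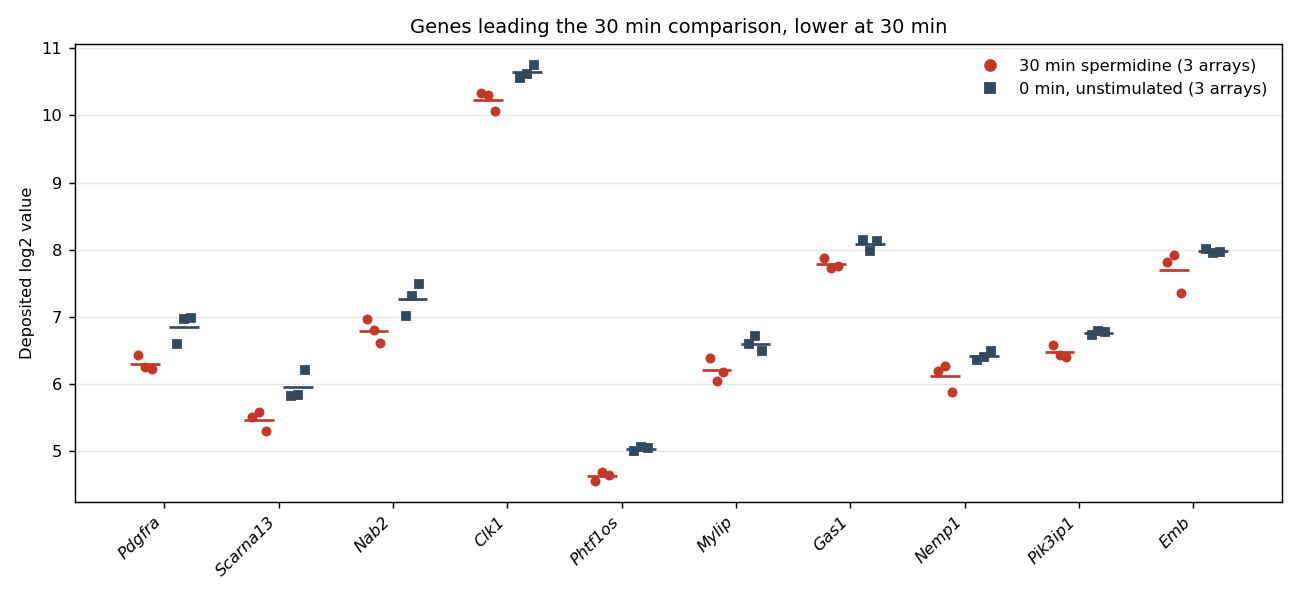
Log2 signal of the 10 leading lower genes on each array, with the 3 arrays at 30 min left of the 3 at 0 min and bars at the group means. All 30 min arrays lie below all 0 min arrays, by least in Nab2 (6.96 against 7.00) and in Emb (7.92 against 7.95), and most tightly in Phtf1os.

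Genes of polyamine metabolism and transport showed small differences at 30 min. Odc1, which encodes the enzyme that DFMO inhibits, read 9.86, 9.94 and 9.92 at 30 min, against 9.78, 9.86 and 9.83 at 0 min, a difference of 0.082 with a 95% interval of -0.059 to 0.22. Its arrays did not overlap but lay within 0.2 of each other. Another probe set of Odc1 read 9.17, 9.15 and 9.32 at 30 min, against 9.13, 9.17 and 9.00 at 0 min. It differed by 0.12, and its arrays overlapped. Sat1, the acetyltransferase that starts polyamine breakdown, differed by 0.081 (-0.073 to 0.24), Azin1, which protects ornithine decarboxylase from degradation, by -0.055 (-0.23 to 0.12), and the synthase Srm and the oxidase Smox by 0.033 and 0.021. Eif5a, the carrier of hypusine, differed by 0.12 ± 0.068 and Slc18b1, a vesicular polyamine transporter, by -0.19 ± 0.092. Over the 25 measured genes, out of 32 listed, differences ran from -0.19 to 0.12 with a median of 0.033 (0.019 on leaving out replicate 3 of 0 min). Of these, 2 (8%) lay wholly above, Odc1 on the probe set used among them, and 1 (4%) below, against 5.1% and 8.32% of all genes.

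Other programmes that respond quickly in other settings were counted against the 5.1% of all genes wholly above and the 8.32% wholly below. Of 14 measured cAMP response genes none lay wholly above or below (Sik1 -0.14, Ppargc1a -0.051), and the median was 0.014, or -0.014 on leaving out replicate 1 of 0 min and 0.037 on leaving out replicate 2. Of 16 genes of NF-kB feedback and targets, Nfkbiz (0.38 ± 0.099, adjusted p = 0.548) and Tnfaip3 (0.20) lay above and Nfkb2 (-0.12) and Tnf (-0.092) below. Of 12 glucocorticoid-induced genes 3 (25%) lay above, Dusp1, Errfi1 and Klf9, of which the first 2 are also feedback genes, and Tsc22d3, a gene that glucocorticoids induce in many cells, differed by -0.10. Of 13 heat shock genes 2 lay above (Dnajb4 0.14, Hspa8 0.048, though another probe set of Hspa8 differed by 0.26 and the mean of its probe sets by 0.12) and 1 below (Bag3 -0.19), and of 16 TGF-beta and BMP early genes 2 lay above (Tgif1 0.24, Id4 0.17) and 1 below (Snai1).

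Genes of the cell cycle overlapped. None of 34 genes of G1/S and DNA replication lay wholly above or below (median -0.046, Cdc6 -0.32 ± 0.30 with overlap), nor did any of 24 of G2/M and mitosis (median 0.059). The first median was -0.017 on leaving out replicate 3 of 30 min. In 19 of the 24 mitotic genes the highest 0 min value was that of replicate 1 and in 18 the highest 30 min value that of replicate 2, and their median was 0.12 on leaving out the first of these arrays and 0.0070 on leaving out the second. Myc, a transcription factor of growth, read 9.53, 9.68 and 9.50 at 30 min, against 9.29, 9.42 and 9.14 at 0 min (0.28 ± 0.14, adjusted p = 0.897), the 1 member wholly above among 16 delayed early growth genes. In that list 3 genes (18.8%) lay wholly below, against 8.32% of all genes. Sterol synthesis leaned the other way: of 20 measured genes 5 lay wholly below (Hsd17b7 -0.25, Hmgcs1 -0.22, Fdps -0.19, Tm7sf2 -0.18 and the regulator Srebf2 -0.15) and none above, against 8.32% of all genes below, with a median of -0.086 (-0.13 on leaving out replicate 1 of 30 min) and none called. Of 55 small nucleolar and Cajal body RNA genes 4 (7.27%) lay above and 2 (3.64%) below, against 5.1% and 8.32% of all genes, with a median of 0.078.

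The later course of the leading genes separated those that stayed up at 60 min from those that did not. Mean Egr1 was 4.43 at 0 min, 6.46 at 30 min, 6.77 at 60 min and 4.20 at 120 min, and stayed between 4.10 and 4.15 from 240 to 600 min. Ccn1 and Edn1 also read higher at 60 min than at 30 min, with means of 9.44, 10.62, 10.85 and 8.58 for Ccn1 and 6.59, 7.20, 7.63 and 5.94 for Edn1 at 0, 30, 60 and 120 min. Zfp36 instead passed 5.83, 6.47, 6.16 and 5.90 at these times, and Nppb 5.37, 5.96, 5.81 and 5.00, before staying between 4.78 and 4.86 from 240 min on. Mir145a was at 4.10, 4.81, 4.12 and 4.08 and Mir125b-1 at 5.52, 6.22, 5.42 and 5.47, so that both were back near the 0 min level at 60 min, and H2bc14 at 5.40, 6.02, 4.94 and 4.99. Each of these differences from 0 min uses the same unstimulated arrays, and no agreement between them is drawn on.

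**Figure D5:**
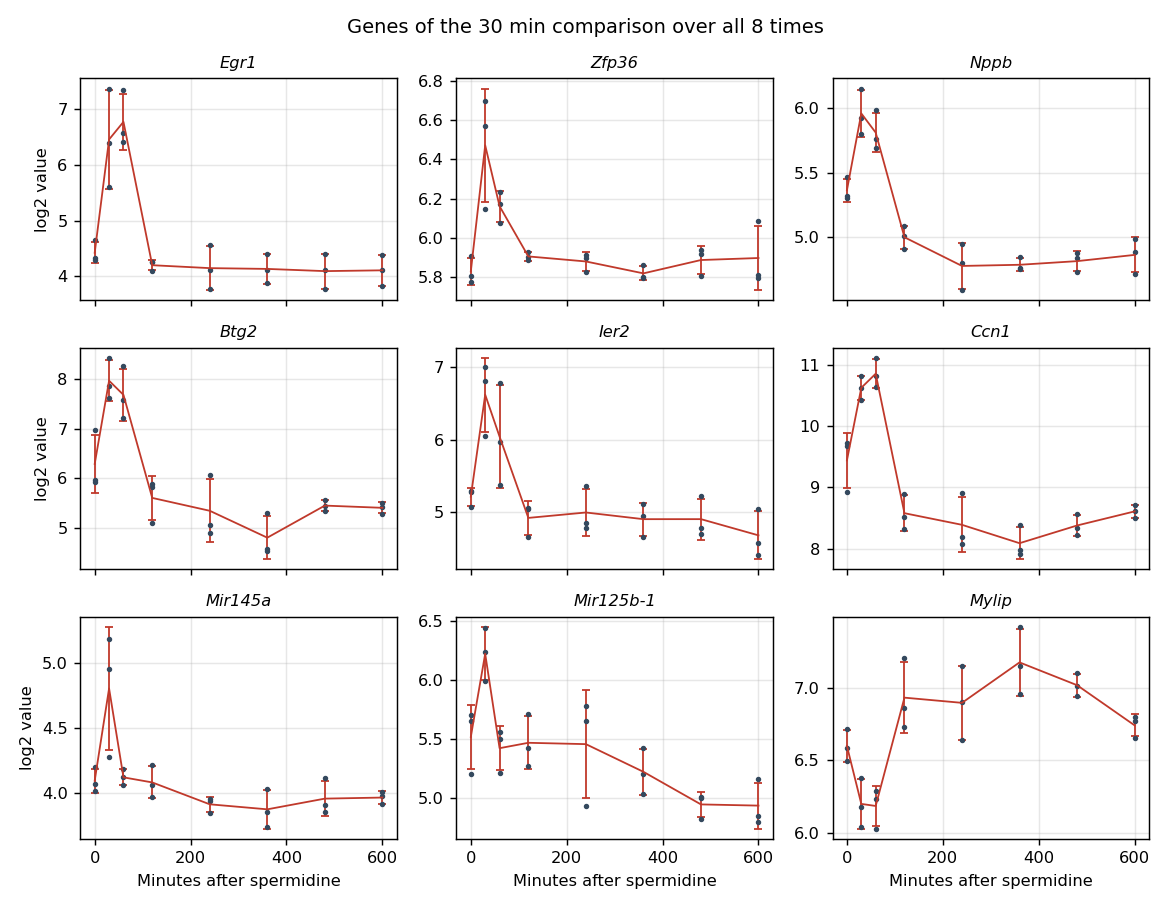
Mean log2 signal with SD of 3 arrays at the 8 harvest times from 0 to 600 min for 9 genes, with the single arrays as points and a separate vertical scale in each panel. Egr1 is high at 30 and 60 min only, at 6.46 and 6.77, Mir145a at 30 min alone, at 4.81, and Mylip is lowest at 30 and 60 min, at 6.20 and 6.18, and highest at 360 min, at 7.18.

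The step from 60 to 120 min compares other arrays than those whose values ranked the leading genes, though all arrays share the spread behind the p used in that choice. Between these times 21 genes (0.105%) were called higher and 61 (0.306%) lower at 120 min. Of the 15 leading higher genes 13 (86.7%) were lower at 120 min than at 60 min, against 56.1% of all genes, and 6 were called: Egr1, Btg2, Ccn1, Chac1, Edn1 and Plk3, the same 6 with replicate number in the model. Nppb, called at 30 min but not among the 15, fell as well. The median of the 15 was -1.01, against -0.011 over all genes, and the genes were chosen as high at an earlier time. Ccn1 read 8.90, 8.53 and 8.32 at 120 min, against 10.63, 11.11 and 10.81 at 60 min, and fell by 2.27 ± 0.22 (adjusted p = 4.52e-05). Egr1 read 4.25, 4.10 and 4.26 at 120 min, against 6.57, 7.34 and 6.41 at 60 min, and fell by 2.57 ± 0.32 (adjusted p = 0.000407). The groups are far apart in both genes, also without the 120 min array that stands apart, and all 6 genes stayed called with any 1 array left out. The differences were -1.69 for Edn1, -2.09 for Btg2, -1.23 for Chac1, -1.01 for Plk3 and -0.81 for Nppb, with adjusted p from 0.000170 to 0.00431. In the fit of the 6 arrays alone these 5 were not called, with adjusted p from 0.0543 to 0.239.

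Zfp36 differed by -0.26 over this interval (adjusted p = 0.270), Ier2 by -1.12 (adjusted p = 0.0980) and Egr2 by -1.21 (adjusted p = 0.0666), none of them called. Of the genes named from the lists, Jun fell by 0.74 (adjusted p = 0.000194), Dusp6 by 0.77 (adjusted p = 0.000450) and Ptgs2 by 1.01 (adjusted p = 0.00308). In Ptgs2 the 120 min array that stands apart was the lowest, at 9.07 against 9.80 and 9.65. In Jun and Dusp6 it was the highest of the 120 min arrays. At 120 min 12 of the 15 genes (80%) had means below those at 0 min, against 55% of all genes, with a median difference of -0.22. Ier3 and H2bc14 were exceptions later on. Mean Ier3 was 5.31 at 120 min and 6.34 at 600 min, its level at 30 min. Mean H2bc14 was 4.99 at 120 min and 6.04 at 600 min, against 6.02 at 30 min.

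The leading lower genes moved less evenly after 60 min. Of the 10, 7 were higher at 120 min than at 60 min, and 1 was called, Mylip, which read 6.73, 6.86 and 7.21 at 120 min, against 6.29, 6.23 and 6.03 at 60 min (0.75 ± 0.13, adjusted p = 0.0106). The highest of these arrays is the one that stands apart, and without it the adjusted p was 0.106, as it was 0.0908 without replicate 3 of 60 min. Nab2 read 7.09, 7.57 and 7.18 at 120 min, against 6.81, 6.85 and 6.70 at 60 min, a difference of 0.50 that was not called (adjusted p = 0.0798), and its mean of 7.28 at 120 min stood beside 7.27 at 0 min. Pdgfra passed 6.85, 6.30, 6.46 and 6.87 at 0, 30, 60 and 120 min and reached 8.22 at 600 min, Gas1 went through 8.09, 7.79, 7.80 and 8.17 to 8.89, and Clk1 through 10.64, 10.23, 10.44 and 10.70 to 10.41. The counts of calls between these times moved with single arrays. Without the 120 min array that stands apart 26 genes were called lower and 1 higher, and 134 lower and 65 higher when replicate 2 of 120 min was left out. Leaving out replicate 1, 2 or 3 of 60 min gave 64, 27 and 33 lower and 13, 8 and 4 higher.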

How the data were processed

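NIH3T3 RNA, 200 ng a sample, was measured on 24 Affymetrix MoGene 1.0 ST arrays, and groups were taken from the labelled harvest times. Per the submitters' processing notes, the authors made the deposited log2 values by robust multi-array averaging (RMA) in Partek, in a version no source used here names. The notes do not state the scale, and log2 is read from the range of the values. No further normalization was applied. The equal means of the replicate numbers, with a median gap of 5e-06, were found in the values; the step behind them is not described.

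The arrays hold 35399 probe sets, 21789 with 1 symbol, 1621 with several and 11989 without. Where a gene had more than 1 single-symbol probe set (999 genes), the brightest on average stood for it, which left 19938 genes. Compared with RefSeq symbols, 0 were updated and 23 found no match. The limma package (3.58.1, R 4.3.3, with the data.table package, version 1.17.8) fitted 1 mean per time over the whole series. Moderated two-sided tests had 16 residual degrees of freedom, 2 more than values with equal replicate means carry, and 3.48 prior ones, with Benjamini-Hochberg adjustment over all genes. With 3 arrays a group, their number limits the precision. The labels call the replicates biological without naming separate cultures, so that p-values measure the spread between these samples.

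Leading genes were the 15 largest positive and 10 largest negative differences among genes with an unadjusted p under 0.05 and no overlap between groups, gene models without a proper name being passed over. Genes called at 30 min and up to 4 members of each list by p were named too, with chosen genes of polyamine metabolism. The members, gene lists and rules were chosen with earlier results of these data known. Alternatives were the replicate block, the compared arrays alone, a filter on level, trended and robust moderation, quantile normalization, the mean of probe sets, and arrays left out. With an effect of replicate number already removed, whether these numbers pair the samples cannot be checked from their deviations.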

Additional observations from a re-analysis of the deposited data

Results flagged for a closer look

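Probe sets without a single gene symbol take no part in the comparisons above. In a separate limma fit of the 13610 such probe sets, 2 were higher at 30 min at an adjusted p under 0.05. Probe set 10458245 read 6.09, 6.38 and 6.40 at 30 min, against 5.62, 5.69 and 5.50 at 0 min, a difference of 0.69 (adjusted p = 0.0427). Probe set 10339849 read 9.67, 9.78 and 9.78 at 30 min, against 9.44, 9.17 and 9.13 at 0 min, a difference of 0.49 (adjusted p = 0.0399). Both are unnamed here. Neither was called when all 35399 probe sets were fitted together.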

How the results depend on the processing

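Between 30 and 0 min, 3 genes were called higher and 0 lower. With the replicate number as a block, alone or with both arrays that stand apart left out, 0 were called higher, and likewise 0 when all probe sets of the array were fitted, a setting chosen after seeing the data, under which 861 had an unadjusted p under 0.05. With both arrays left out and no block, 7 were called higher. The count of lower genes was 1 among genes at or above the median level, after quantile normalization, with the mean of all probe sets of a gene and with both arrays left out. Leaving out 1 array at a time gave 0 to 7 higher and 0 lower, with 401 to 740 lower at an unadjusted p under 0.05. Over 15 settings the difference of Egr1 ran from 1.58 to 2.46 (adjusted p from 0.000626 to 0.377), that of Zfp36 from 0.53 to 0.81 (2.46e-05 to 0.431) and that of Nppb from 0.50 to 0.68 (0.0129 to 0.274), called in 5, 6 and 6 of the 15. Between 120 and 60 min, 21 genes were called higher and 61 lower. These were 5 higher and 32 lower with the replicate block, 0 and 5 with the 6 arrays alone, 35 and 96 among genes at or above the median level, 5 higher with both arrays left out, and 2 and 33 with both left out and the block. Leaving out 1 array gave 1 to 65 higher and 26 to 134 lower. Egr1 and Ccn1 were called lower in all 14 settings run there. Signs turned in few of the named genes, whose differences lay between -0.22 and 0.23. Between 30 and 0 min these were, with 1 array left out, Fosb (-0.0099 to 0.114), Ppargc1a (-0.100 to 0.0055), Epcam (-0.055 to 0.0014), Srm (-0.012 to 0.074) and Smox (-0.023 to 0.046). Between 120 and 60 min they were Eid3 (0.11 with both arrays left out, 0.14 with the block too, -0.17 to 0.23 with 1 left out), Mir125b-1 (-0.077, -0.12 and -0.077 to 0.14), H2bc14 (-0.17, -0.22 and -0.17 to 0.21), Mir145a (-0.10 to 0.017) and Phtf1os (-0.065 to 0.019). The causes were not tested. Among single named genes at 30 min, 1740 values kept direction and side of the threshold, 13 passed it, 28 no longer did and 6 changed sign.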

Other observations

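Clk1 was followed into its family and the factors it acts on, a group chosen after its values were seen. Of 17 measured CLK kinases, SR splicing factors and related genes 0 lay wholly above the 0 min arrays at 30 min and 3 (17.6%) wholly below, against 8.32% of all genes: Clk1, its relative Clk4, which read 8.79, 8.77 and 8.51 at 30 min, against 8.81, 8.98 and 9.06 at 0 min, and Rbm15, an RNA-binding protein, which read 7.22, 7.22 and 7.00 at 30 min, against 7.36, 7.37 and 7.47 at 0 min. Their differences were -0.41, -0.26 and -0.26. The splicing factor Srsf2 differed by -0.15 and Luc7l3 by -0.22, both with overlapping arrays and an unadjusted p under 0.05. Clk1 prompted the choice of the group, and 2 of the other 16 genes (12.5%) lay wholly below, with the nearest Clk4 arrays at 8.79 and 8.81. The median of the 17 was -0.037, against -0.0095 over all genes, and none was called.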
